A study of Mus musculus with 5 samples.

Results

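The antioxidant and thioredoxin genes described here are 10 mouse genes: the regulator Nfe2l2, the superoxide dismutases Sod1 and Sod2, the thioredoxin and peroxiredoxin genes Txn1, Txnrd1 and Prdx1, and the glutathione genes Gclc, Gclm, Gpx1 and Gstp1. They were taken by name, as every probe set of the Affymetrix MG-U74Av2 array whose platform gene symbol, or current name by Entrez ID, was one of the 10. This gave 11 of the 12488 probe sets on the array. Of these, 9 probe sets named a single member each and 2 named Prdx1 together with Gm21399, which the RefSeq table lists as a pseudogene. Each of the 11 passed the filter on dim probe sets, a mean signal over the 5 arrays of at least 513. The 9 members with a probe set of their own were among the 5581 genes tested, and Prdx1 was tested only through its shared probe sets.

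The samples were peritoneal macrophages of mice, 1 array per sample, in 3 groups. The poly IC plus ethanol group was 2 arrays, each from a pool of mice given 0.1 mg poly IC per mouse and acute oral ethanol at 6 g/kg. The poly IC group was 2 arrays from pools of mice given poly IC without ethanol; the dose of 0.1 mg per mouse is stated for the second pool only. Poly IC (polyinosinic polycytidylic acid) is a made double-stranded RNA used to mimic infection by a virus. All treated mice were 12-week-old female F1 offspring of C57Bl/6 and C3H parents. The naive group was 1 array of untreated macrophages, for which sex, age and pooling are not given. Because each treated array is a pool, the p-values measure the spread between pools and not between mice. The single naive array was assumed to vary like the treated ones, and a difference of mice or handling between it and the treated arrays cannot be told apart from the treatment. No array of mice given ethanol alone was analysed here, so the question these groups address is how far ethanol changes the response to poly IC. The time between treatment and harvest is not given in the sources used here.

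NRF2, the protein made from Nfe2l2, is a transcription factor that is kept low by KEAP1 and that, when cells meet oxidants or electrophiles, acts at antioxidant response elements (AREs) of genes for glutathione and thioredoxin enzymes. Superoxide dismutases turn superoxide into hydrogen peroxide. Peroxiredoxins and glutathione peroxidases then remove the peroxide, with electrons passed on from NADPH through thioredoxin reductase and thioredoxin or through glutathione reductase and glutathione. Macrophages make superoxide and nitric oxide themselves when they meet microbial products, and Sod2 is a known target of the inflammatory factor NF-kB.

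The macrophage label was checked against 19 marker genes on the array, none of which was listed at 0. Across the 5 arrays the signal of Cd68 lay between 25163 and 27474, that of Csf1r between 26448 and 34885, and that of Lyz2 between 73144 and 81816. Gata6, the factor that marks resident peritoneal macrophages, was 1851 and 2188 with poly IC plus ethanol, 1169 and 1531 with poly IC, and 7218 in naive cells. Markers of other cells moved with the groups as well. The summed signal of 16 neutrophil markers was 67383 and 56632 with poly IC plus ethanol, 157707 and 120840 with poly IC, and 49526 in naive cells. Much of the naive sum came from Padi4 (25559) and Prtn3 (11430), both highest in naive cells, so the sum understates the change of other markers. S100a8 was 10640.5 and 10208.6 with poly IC plus ethanol, 56817.8 and 40341.3 with poly IC, and 564.4 in naive cells. That of 17 B cell markers was 288926 and 304556 with poly IC plus ethanol, 221981 and 205983 with poly IC, and 427369 in naive cells. The 8 red cell markers summed to 21595 and 13785 with poly IC plus ethanol, 20828 and 35973 with poly IC, and 3212 in naive cells, and 2 of 4 tested were higher with poly IC than in naive cells. None of the markers of these lists was listed at 0. Of 13 neutrophil markers tested, 6 were lower and none higher with ethanol than without it. With poly IC against naive cells, 8 of them were higher and 1 (Prtn3) was lower. Of 16 B cell markers tested, 6 were higher and none lower with ethanol. With poly IC against naive cells, 13 of these were lower and 1 (Cd83) was higher. Among 7 T and NK cell markers tested, 1 (Cd2) was higher and 1 (Gzmb) lower with ethanol. Relative to naive cells, poly IC raised 2 of the 7 and lowered 1. Among 5 mast cell markers tested only Hdc was called, lower with ethanol and higher with poly IC than in naive cells. None of 4 fibroblast or mesothelial markers tested was called. The 19 macrophage markers summed to between 487428 and 682565, lowest in naive cells, with 2 lower with ethanol than without it, and 5 higher and 4 lower with poly IC than in naive cells. The part of these cells in the results below was not tested, and in bulk RNA fewer cells of a type and less RNA per cell cannot be told apart. The ratio of 3′ to 5′ actin signal, a measure of RNA integrity, lay between 1.04 and 1.15 on all arrays. The signal of the 18S ribosomal RNA control probe set did differ between arrays, with 8225 and 19415 with poly IC plus ethanol, 5113 and 66548 with poly IC, and 7277 in naive cells, so that the second poly IC array stood apart. Its part in the results was not tested; calls lost without that array are named beside the genes they concern.

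Poly IC raised 4 of the 9 tested members and lowered 1, relative to naive cells. The 4 that rose were Sod2 (13.2-fold), Txnrd1 (7.49-fold), Nfe2l2 (4.06-fold) and Txn1 (1.92-fold), and Gstp1 fell to 0.546 of the naive signal. Sod1, Gpx1, Gclc and Gclm did not pass the test, and neither did the 2 Prdx1 probe sets. Adding ethanol to poly IC moved none of the 9 members past the test. The tests were made with limma on log2(signal + 250), and a gene was called at an adjusted p under 0.05 over all 5581 genes. By this rule 31.8% of all genes were called for poly IC against naive, 11.7% higher and 20.1% lower. For poly IC plus ethanol against poly IC it was 10.6% of all genes, 5.77% higher and 4.8% lower. The offset of 250 makes log2 differences of dim genes smaller than those of the signals.

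**Figure D1:**
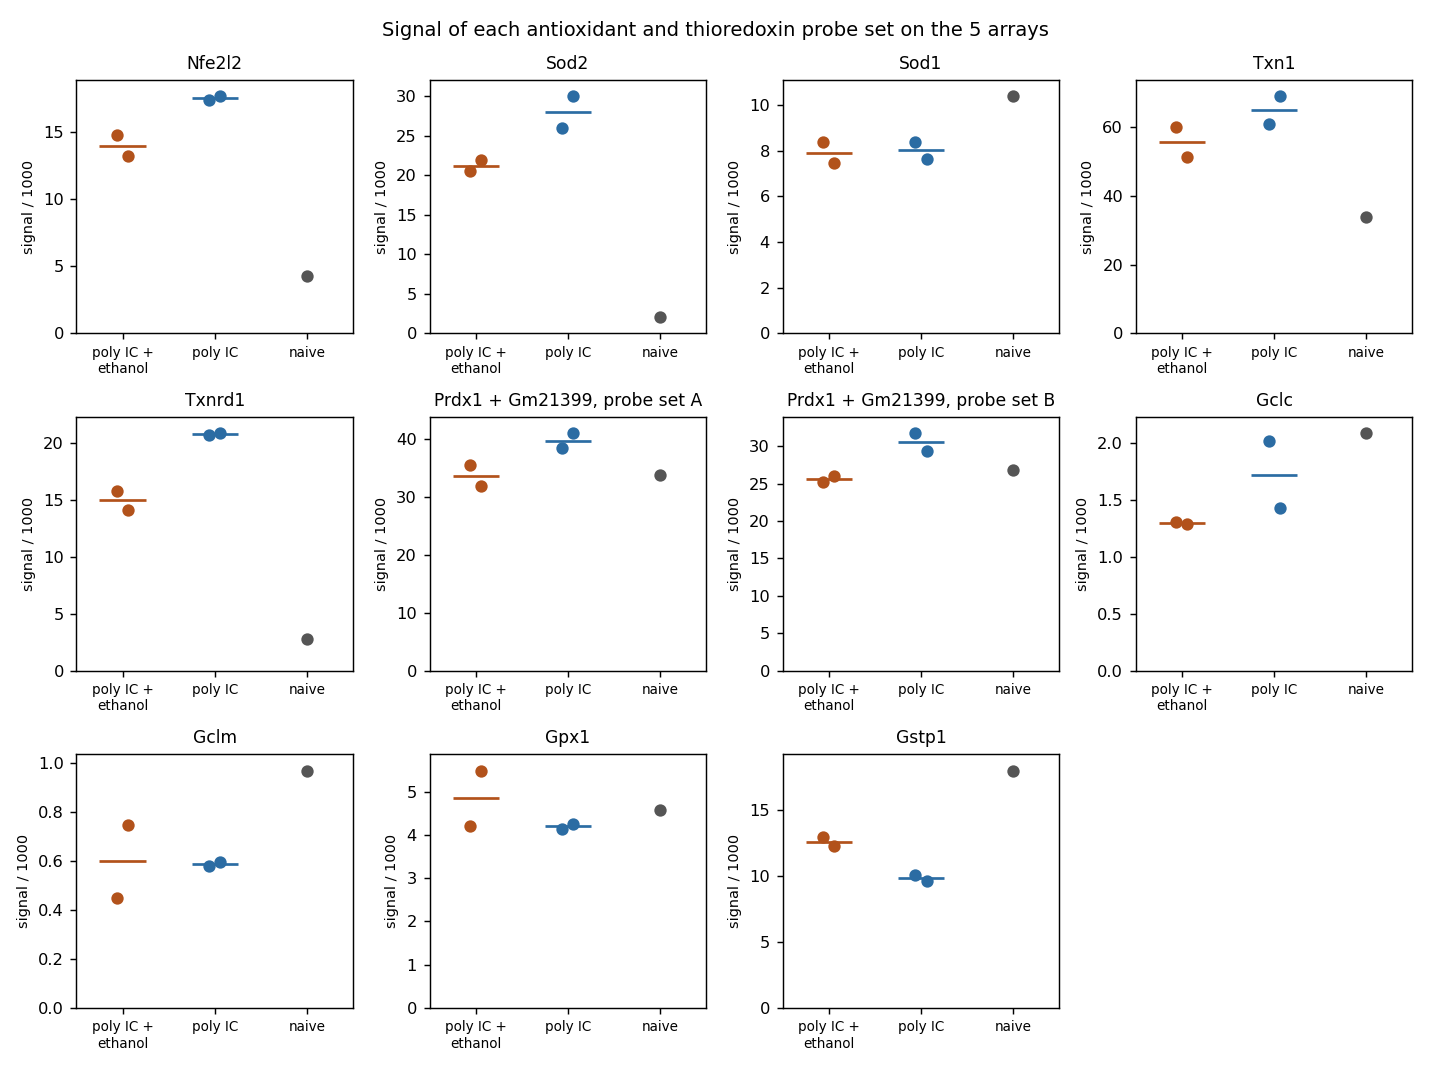
Signal in units of 1000 (linear scale from 0) of each of the 11 probe sets on the 5 arrays; points are single arrays, bars are means of the 2 arrays of a group, and the naive group is 1 array. Sod2, Txnrd1, Nfe2l2 and Txn1 are high on all 4 treated arrays, and Gstp1 is highest on the naive array.

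Nfe2l2 encodes the regulator itself and lies on chromosome 2 (chr2:75675513-75704663, GRCm38.p6, minus strand). Its signal was 14748 and 13187 with poly IC plus ethanol, 17372 and 17640 with poly IC, and 4311 in naive cells. All 4 treated arrays stood far above the naive array, and the ethanol arrays lay below both poly IC arrays without overlap. The log2 difference of poly IC against naive was 1.96 (SE 0.16, limma adjusted p = 1.48e-05), higher than that of 96.7% of genes. With ethanol the gene remained above naive, by 1.64 (limma adjusted p = 8.21e-05, 3.24-fold). Between ethanol with poly IC and poly IC alone the difference was -0.32 (SE 0.13, 95% interval -0.62 to -0.03, limma adjusted p = 0.157).

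The 250 bases before the Nfe2l2 start site (chr2:75704664-75704913, minus strand, RefSeq annotation of GRCm38.p6) are shown because NRF2 acts at AREs and this window holds the letters of one, in capitals, 240 to 232 bases before the start:
Nfe2l2 upstream: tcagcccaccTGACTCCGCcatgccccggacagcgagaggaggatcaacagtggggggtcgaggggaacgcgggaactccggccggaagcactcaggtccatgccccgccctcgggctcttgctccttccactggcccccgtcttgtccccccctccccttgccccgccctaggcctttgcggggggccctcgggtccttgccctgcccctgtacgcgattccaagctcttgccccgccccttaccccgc

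Of the superoxide dismutases, Sod2 rose with poly IC and Sod1 did not pass the test. Sod2, the manganese enzyme of mitochondria, lies on chromosome 17 (chr17:13007839-13018119, plus strand). Its signal was 20485 and 21887 with poly IC plus ethanol, 25905 and 29967 with poly IC, and 2123 in naive cells. Each treated array was many times brighter than the naive one, and the ethanol arrays again lay below both poly IC arrays. Against naive, poly IC raised Sod2 by 3.57 on the log2 scale (SE 0.16, limma adjusted p = 1.97e-07), above the difference of 99.05% of genes, and poly IC plus ethanol raised it by 3.17 (limma adjusted p = 6.72e-07, 9.98-fold). Ethanol with poly IC against poly IC alone gave -0.39 (SE 0.13, 95% interval -0.69 to -0.10), which did not pass the test (limma adjusted p = 0.0935). The signal of the ethanol arrays was 0.758 of that of the poly IC arrays.

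Sod1, the copper and zinc enzyme of the cytosol, lies on chromosome 16 (chr16:90220762-90226333, plus strand). It had signals of 8375 and 7460 with poly IC plus ethanol, 8375 and 7650 with poly IC, and 10381 in naive cells. The treated groups overlapped fully and both lay below the naive array. Its log2 difference was -0.02 for poly IC plus ethanol against poly IC (95% interval -0.34 to 0.31, limma adjusted p = 0.957) and -0.36 for poly IC against naive (95% interval -0.76 to 0.03, limma adjusted p = 0.147).

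The Sod2 window (chr17:13007589-13007838, plus strand) is shown because the gene rose most among the members and because its known regulator NF-kB has a match there, in capitals, 83 to 74 bases before the start; the same letters match on both strands:
Sod2 upstream: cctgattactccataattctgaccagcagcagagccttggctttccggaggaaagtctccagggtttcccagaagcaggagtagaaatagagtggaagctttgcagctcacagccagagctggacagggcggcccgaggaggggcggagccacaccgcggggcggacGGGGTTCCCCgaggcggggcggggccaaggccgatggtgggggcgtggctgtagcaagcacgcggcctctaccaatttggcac

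Txn1 and Txnrd1, thioredoxin and the selenium-containing reductase that recharges it in the cytosol, rose together with poly IC. Txnrd1, on chromosome 10 (chr10:82833951-82897724, plus strand), had signals of 15817 and 14141 with poly IC plus ethanol, 20717 and 20834 with poly IC, and 2773 in naive cells. The 3 groups did not overlap, with the ethanol arrays between naive and poly IC. Poly IC raised it over naive by 2.80 (SE 0.16, limma adjusted p = 1.12e-06), and poly IC plus ethanol by 2.33 (limma adjusted p = 5.78e-06, 5.40-fold). Among the members Txnrd1 came closest to the threshold for ethanol: poly IC plus ethanol against poly IC gave -0.47 (SE 0.13, 95% interval -0.76 to -0.17, unadjusted p = 0.00562), with a limma adjusted p = 0.0523. This value rests on processing. The adjusted p was 0.0498 with an offset of 1000, 0.0439 in a fit of the 4 treated arrays alone and 0.0119 without the first ethanol array, and over all alternatives it ran up to 0.292.

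Txn1, on chromosome 4 (chr4:57943373-57956411, minus strand), had signals of 59844 and 51105 with poly IC plus ethanol, 60915 and 68846 with poly IC, and 33876 in naive cells. Every treated array exceeded the naive one, and the first ethanol array lay close to the first poly IC array. Over naive, Txn1 was higher by 0.93 with poly IC (SE 0.14, limma adjusted p = 0.000731) and by 0.70 with poly IC plus ethanol (limma adjusted p = 0.00657, 1.64-fold). Set against poly IC alone, ethanol with poly IC gave -0.23 (SE 0.11, 95% interval -0.48 to 0.02, limma adjusted p = 0.238). Without the first ethanol array that difference was -0.34 and passed the test (limma adjusted p = 0.0314).

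Txnrd1 has 3 start sites in the RefSeq promoter table, and the window of the middle one (chr10:82858956-82859205, plus strand) is shown because it holds the only ARE letters found at this gene, on the opposite strand, 92 to 84 bases before the start and in capitals:
Txnrd1 upstream: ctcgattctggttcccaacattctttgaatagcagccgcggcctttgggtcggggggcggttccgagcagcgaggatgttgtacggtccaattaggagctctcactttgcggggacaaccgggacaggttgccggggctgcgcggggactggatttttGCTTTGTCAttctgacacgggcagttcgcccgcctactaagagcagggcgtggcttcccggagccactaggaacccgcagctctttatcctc

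Prdx1 encodes a cytosolic peroxiredoxin that takes its electrons from thioredoxin and lies on chromosome 4 (chr4:116685599-116700000, plus strand). Since both of its probe sets also name Gm21399, the signals may hold RNA of either. The first probe set had 35551 and 31862 with poly IC plus ethanol, 38410 and 40998 with poly IC, and 33821 in naive cells. The second had 25249 and 25961 with poly IC plus ethanol, 31710 and 29322 with poly IC, and 26801 in naive cells. On both, the ethanol arrays lay below the poly IC arrays and at about the naive level. In a limma fit over all 7453 probe sets that passed the filter, poly IC plus ethanol against poly IC gave -0.24 (95% interval -0.48 to 0.01, adjusted p = 0.221) on the first and -0.25 (95% interval -0.49 to -0.01, adjusted p = 0.201) on the second. Poly IC against naive gave 0.23 (limma adjusted p = 0.227) and 0.18 (limma adjusted p = 0.336), and both signs turned under quantile normalization, to -0.12 and -0.14.

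In the glutathione group, the genes of synthesis and of peroxide removal did not pass the test and the transferase fell with poly IC. Gstp1, a glutathione transferase that joins glutathione to electrophiles, lies on chromosome 19 (chr19:4035411-4037912, minus strand). Its signal was 12920 and 12263 with poly IC plus ethanol, 10045 and 9589 with poly IC, and 17969 in naive cells. The 3 groups did not overlap, and here the ethanol arrays lay above the poly IC arrays and below naive. Gstp1 fell by 0.86 on the log2 scale with poly IC against naive (SE 0.16, limma adjusted p = 0.00264), a larger drop than that of all but 16.4% of genes. Poly IC plus ethanol against poly IC gave 0.35 (SE 0.13, 95% interval 0.06 to 0.64, limma adjusted p = 0.118), and poly IC plus ethanol against naive gave -0.51 (limma adjusted p = 0.0564). Gstp1 has near-identical neighbours, Gstp2 and Gstp3, and how much of the signal is theirs was not tested.

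The Gstp1 window (chr19:4037913-4038162, minus strand) is shown because this is the member that fell and because it holds the letters of an AP-1 element, in capitals, 74 to 68 bases before the start:
Gstp1 upstream: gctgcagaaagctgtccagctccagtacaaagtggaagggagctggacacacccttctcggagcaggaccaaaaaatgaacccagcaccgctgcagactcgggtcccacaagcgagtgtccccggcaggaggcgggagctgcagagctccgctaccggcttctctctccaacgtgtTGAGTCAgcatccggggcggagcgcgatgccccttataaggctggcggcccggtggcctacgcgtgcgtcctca

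Gclc and Gclm encode the catalytic and the modifier subunit of glutamate-cysteine ligase, the first and rate-limiting step of glutathione synthesis, and both are textbook NRF2 targets. Gclc, on chromosome 9 (chr9:77754535-77794489), had 1309 and 1288 with poly IC plus ethanol, 2014 and 1431 with poly IC, and 2085 in naive cells. The ethanol arrays lay below all others, and the poly IC arrays stood well apart from each other. The ethanol difference from poly IC was -0.33 (SE 0.22, 95% interval -0.82 to 0.15, limma adjusted p = 0.378), and poly IC against naive gave -0.26 (limma adjusted p = 0.490). The largest difference of Gclc, poly IC plus ethanol against naive, was -0.59 and had an unadjusted p = 0.0496 and a limma adjusted p = 0.164.

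Gclm, on chromosome 3 (chr3:122245487-122267215, plus strand), was the dimmest probe set of the group, with 449 and 749 with poly IC plus ethanol, 578 and 597 with poly IC, and 970 in naive cells. The brightest of 19 unspiked control probe sets, a measure of background, lay between 299.6 and 443.8 by array, and each Gclm value exceeded that of its own array. The ethanol arrays straddled the poly IC arrays, and all treated arrays were below naive. Poly IC plus ethanol against poly IC gave -0.0036 (95% interval -0.74 to 0.73, limma adjusted p = 0.996), and poly IC against naive gave -0.54 (SE 0.40, 95% interval -1.44 to 0.35, limma adjusted p = 0.335).

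Gpx1, the cytosolic selenium-containing glutathione peroxidase, lies on chromosome 9 (chr9:108339080-108340342, plus strand). It had 4219 and 5498 with poly IC plus ethanol, 4149 and 4262 with poly IC, and 4577 in naive cells. The ethanol arrays overlapped both other groups, and the second ethanol array was the highest of the 5. Both poly IC arrays lay below the naive array. Its log2 difference was 0.19 for poly IC plus ethanol against poly IC (95% interval -0.20 to 0.58, limma adjusted p = 0.557) and -0.12 for poly IC against naive (95% interval -0.59 to 0.36, limma adjusted p = 0.720), and the sign against naive turned under both other scalings (0.08 with arrays centred on their medians, 0.04 with quantile normalization).

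**Figure D2:**
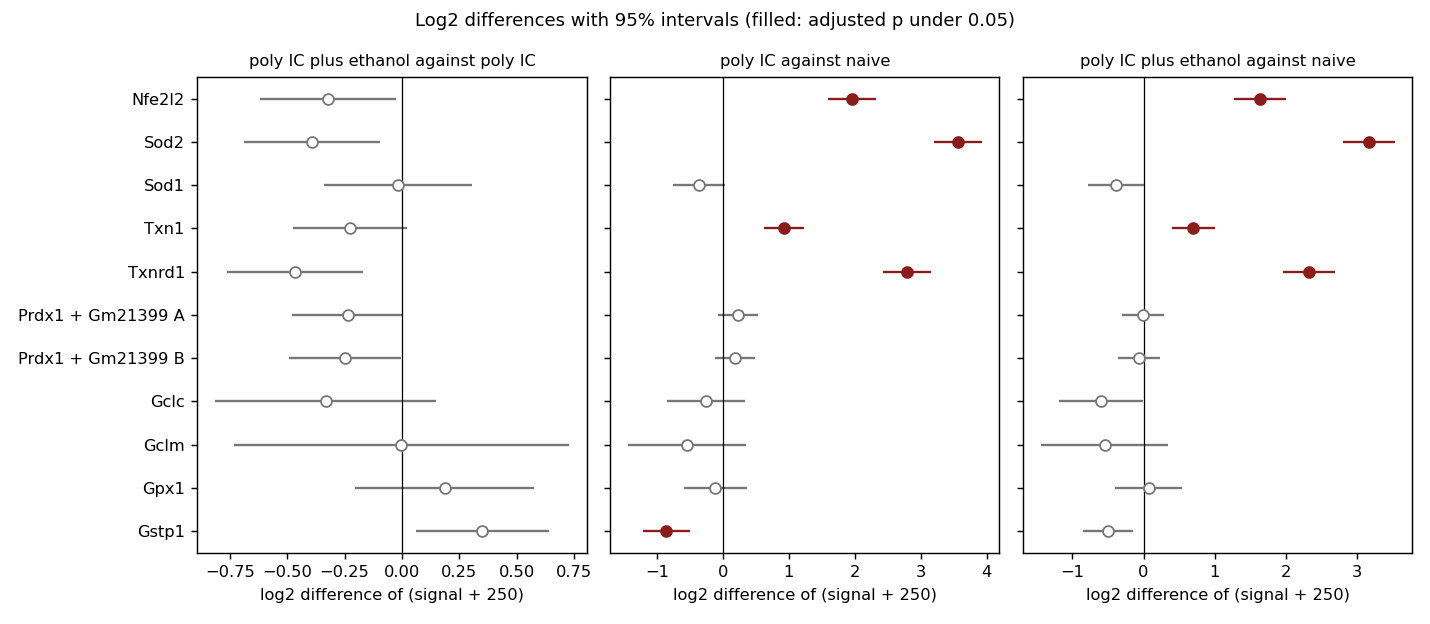
Log2 difference of (signal + 250) of each probe set in the 3 comparisons, with 95% intervals from limma. For poly IC against naive the intervals of Sod2, Txnrd1, Nfe2l2 and Txn1 lie right of 0 and that of Gstp1 left of it; for poly IC plus ethanol against poly IC the values lie between -0.47 and 0.35.

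Over the 9 members, the median log2 difference between mice given ethanol with poly IC and mice given poly IC was -0.23, beside 0.07 over all genes. None of the 9 was called, and 4 had an unadjusted p under 0.05 (Txnrd1, Sod2, Gstp1 and Nfe2l2), as did 1441 of the 5581 genes. Counted by arrays, 5 of the 9 members had both ethanol arrays below both poly IC arrays and 1 had both above, beside 21.7% and 33.1% of all genes, and 54.7% of genes did not overlap in one direction or the other. The 5 were Nfe2l2, Sod2, Txnrd1, Txn1 and Gclc. In poly IC against naive, the members' median was -0.12, beside -0.16 over all genes; with each array centred on its median the value over all genes was 0.04, so differences near 0 in this comparison depend on the scaling. The 5 calls of members held in all 11 alternatives tried for that comparison. In poly IC plus ethanol against naive, 4 of the 9 members were higher (Sod2, Txnrd1, Nfe2l2 and Txn1) and none was lower, beside 16.6% of all genes called, 8.39% higher and 8.26% lower. The other 5 had log2 differences of -0.38 (Sod1, limma adjusted p = 0.178), -0.51 (Gstp1), -0.59 (Gclc), -0.55 (Gclm, adjusted p = 0.395) and 0.07 (Gpx1, adjusted p = 0.858), and the Prdx1 probe sets had -0.01 and -0.07 (limma adjusted p = 0.979 and 0.787). An unadjusted p under 0.05 in limma was reached by 6 of the 9, and by 1697 of the 5581 genes. Without the intensity trend in limma the Txn1 call was lost (adjusted p = 0.0986), and Gstp1 was called lower with quantile normalization or without the first ethanol array. The comparisons share arrays, so their values are given side by side and were not related to each other.

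**Figure D3:**
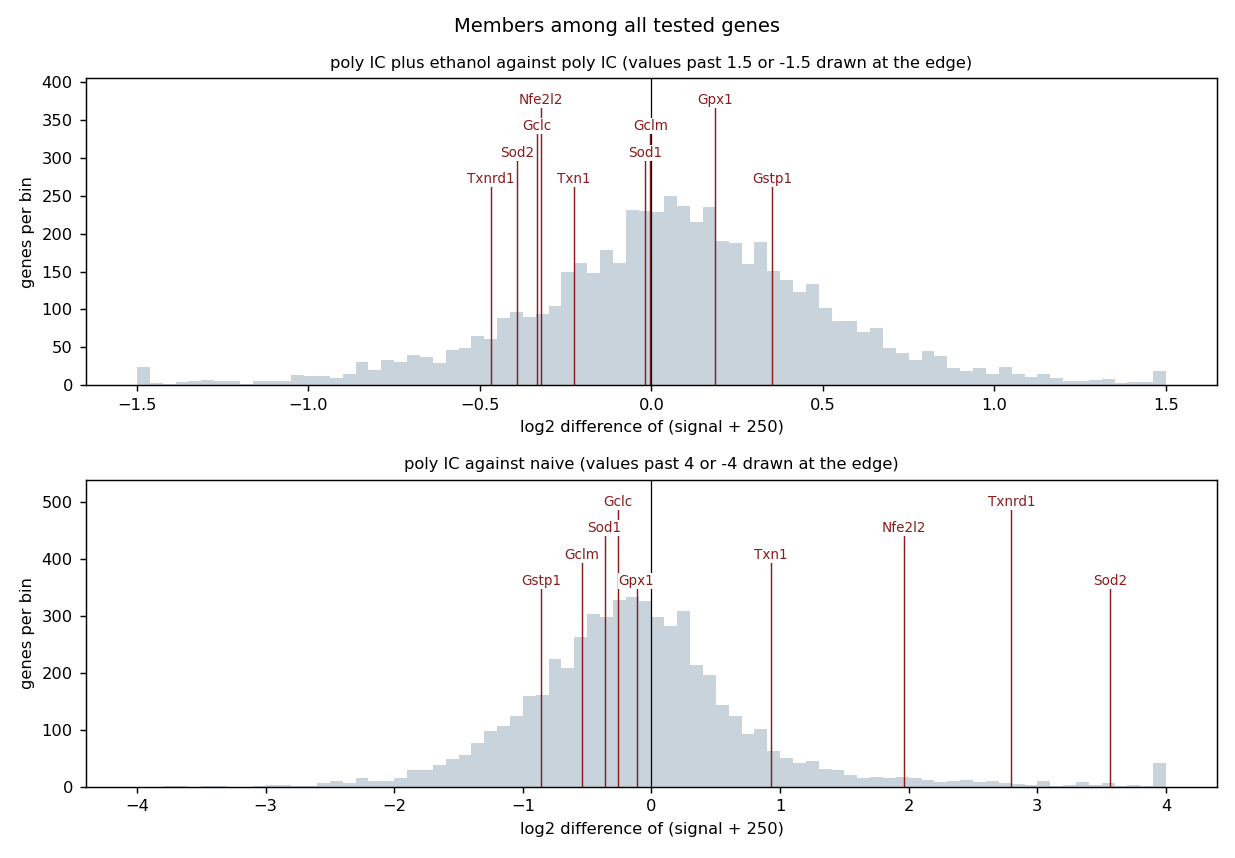
Number of genes per bin of log2 difference over all 5581 tested genes (grey), with the 9 members as lines. For poly IC plus ethanol against poly IC the members lie within the body of the distribution; for poly IC against naive Sod2 lies above 99.05% of genes, Txnrd1 above 98.4% and Nfe2l2 above 96.7%.

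Companion genes of the same pathways were followed in 5 lists of 122 genes in all, of which 77 were tested; some genes stand in more than 1 list. In poly IC against naive, 9 rose and 13 fell (median -0.10, beside -0.16 over all genes). These were 11.7% and 16.9% of the 77, beside 11.7% and 20.1% of all genes. In poly IC plus ethanol against poly IC, 5 rose and 1 fell (median 0.09, beside 0.07 over all genes), which is 6.49% and 1.3% of the 77, beside 5.77% and 4.8% of all genes. In poly IC plus ethanol against naive, 5 were higher and 5 lower (median -0.12, beside -0.11), 6.49% each way, beside 8.39% and 8.26% of all genes. The counts within each list stand beside the same shares of all genes, and no list was tested against other genes. Of the 6 calls for ethanol with poly IC, that of Sesn1 held in all 13 alternatives, and those of Glrx, Glo1, Hagh, Idh1 and Cbr3 were each lost without the filter on dim probe sets and without the intensity trend.

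In the thioredoxin and peroxiredoxin list (15 tested), poly IC raised 1 gene and lowered 3, with a median of -0.07, and ethanol with poly IC raised 1 and lowered 1, with a median of -0.01. Glrx, glutaredoxin, which reduces glutathionylated proteins, was the one that rose with poly IC and fell when ethanol was added. Its signal was 4799 and 5340 with poly IC plus ethanol, 7891 and 7641 with poly IC, and 4236 in naive cells. Both ethanol arrays lay near the naive level. Ethanol with poly IC against poly IC gave -0.59 (SE 0.15, limma adjusted p = 0.0344) and poly IC against naive 0.84 (limma adjusted p = 0.00686). The call for ethanol was lost without either poly IC array (limma adjusted p = 0.211 and 0.215).

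Sesn1, a sestrin that is a target of p53 and is linked to the recycling of peroxiredoxins, went the other way. It had 3506 and 3135 with poly IC plus ethanol, 924 and 997 with poly IC, and 13403 in naive cells, without overlap. Ethanol with poly IC against poly IC gave 1.56 (SE 0.17, limma adjusted p = 0.000892), and poly IC plus ethanol against naive gave -1.94 (limma adjusted p = 0.000149). Txnip, the protein that binds and inhibits thioredoxin, was 9941 and 10824 with poly IC plus ethanol, 8961 and 9267 with poly IC, and 21426 in naive cells. All treated arrays were below naive, with a log2 difference of -1.21 for poly IC (limma adjusted p = 0.000392) and 0.18 between the treated groups (adjusted p = 0.455 in the limma fit over probe sets). A second, dimmer Txnip probe set gave 0.29 for poly IC against naive (limma adjusted p = 0.481), and the call was lost when the 2 were averaged. Txndc5, a protein disulfide isomerase of the endoplasmic reticulum, was lower with poly IC than in naive cells (log2 difference -1.33, limma adjusted p = 0.00312).

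In the glutathione list (22 tested), poly IC raised 2 genes and lowered 5 (median -0.12), and ethanol with poly IC raised 2 and lowered none (median 0.20). Gsr, glutathione reductase, had 8180 and 7806 with poly IC plus ethanol, 7657 and 7288 with poly IC, and 4209 in naive cells. All treated arrays stood above naive, by 0.79 with poly IC (limma adjusted p = 0.00717) and by 0.89 with poly IC plus ethanol (limma adjusted p = 0.00739). Glo1 and Hagh are the 2 glyoxalases, which use glutathione to clear methylglyoxal, and both fell with poly IC and were higher with ethanol added. Glo1 was 5491 and 4621 with poly IC plus ethanol, 3074 and 3215 with poly IC, and 6519 in naive cells. Hagh was 1331 and 1695 with poly IC plus ethanol, 719 and 677 with poly IC, and 2919 in naive cells. For both, the ethanol arrays lay between the other groups. Adding ethanol to poly IC gave 0.64 for Glo1 (SE 0.16, limma adjusted p = 0.0352) and 0.89 for Hagh (SE 0.22, limma adjusted p = 0.0324). Both calls were lost without either poly IC array and with arrays centred on their medians (limma adjusted p = 0.0844 and 0.0502). That of Glo1 was also lost with quantile normalization (limma adjusted p = 0.0526) and without the first ethanol array, and that of Hagh without the second ethanol array. A second Glo1 probe set gave 0.56 for the same comparison and did not pass (adjusted p = 0.0742 in the limma fit over probe sets). Lancl1, a glutathione-binding protein, was lower with poly IC than in naive cells (log2 difference -1.14, limma adjusted p = 0.00466).

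Among NRF2 partners and targets (20 tested), poly IC raised 3 genes and lowered 2 (median -0.11), and ethanol with poly IC raised 2 and lowered none (median 0.04). Mafk, a small MAF protein that pairs with NRF2 or BACH1 on DNA, had 5624 and 6280 with poly IC plus ethanol, 8079 and 8079 with poly IC, and 1711 in naive cells. It rose by 2.09 with poly IC over naive (SE 0.19, limma adjusted p = 2.69e-05) and stood 1.66 above naive with poly IC plus ethanol (limma adjusted p = 0.00021). Bach1, the repressor that competes with NRF2 for AREs, was 26259 and 25109 with poly IC plus ethanol, 31378 and 43994 with poly IC, and 15787 in naive cells. Poly IC raised it by 1.22 (SE 0.19, limma adjusted p = 0.000952), while poly IC plus ethanol against poly IC gave -0.53 (limma adjusted p = 0.0595). A second Bach1 probe set gave 1.21 for poly IC against naive with a limma adjusted p = 0.0925.

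Idh1 and Cbr3 were the list's 2 genes higher with ethanol. Idh1, a cytosolic NADPH-making dehydrogenase, had 5938 and 4132 with poly IC plus ethanol, 2845 and 1713 with poly IC, and 11965 in naive cells, without overlap. Cbr3, a carbonyl reductase, had 1219 and 1866 with poly IC plus ethanol, 407 and 551 with poly IC, and 921 in naive cells, also without overlap. Poly IC plus ethanol against poly IC gave 1.08 for Idh1 and 1.28 for Cbr3 (limma adjusted p = 0.0223 for each). Both calls were lost without the second poly IC array, where the differences were 0.75 and 1.42. That of Cbr3 was also lost without the first poly IC array (1.14) and without the second ethanol array (1.02). On the poly IC arrays Cbr3 was not far above the brightest unspiked control, 375.7 on the first and 346.8 on the second. Hmox1, heme oxygenase, a standard NRF2 target named here after its values were seen, was 12153 and 12292 with poly IC plus ethanol, 14032 and 21379 with poly IC, and 16761 in naive cells. The naive value lay between the 2 poly IC arrays, and Hmox1 passed the test in neither comparison (limma adjusted p = 0.121 for poly IC plus ethanol against poly IC and 0.894 for poly IC against naive).

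**Figure D4:**
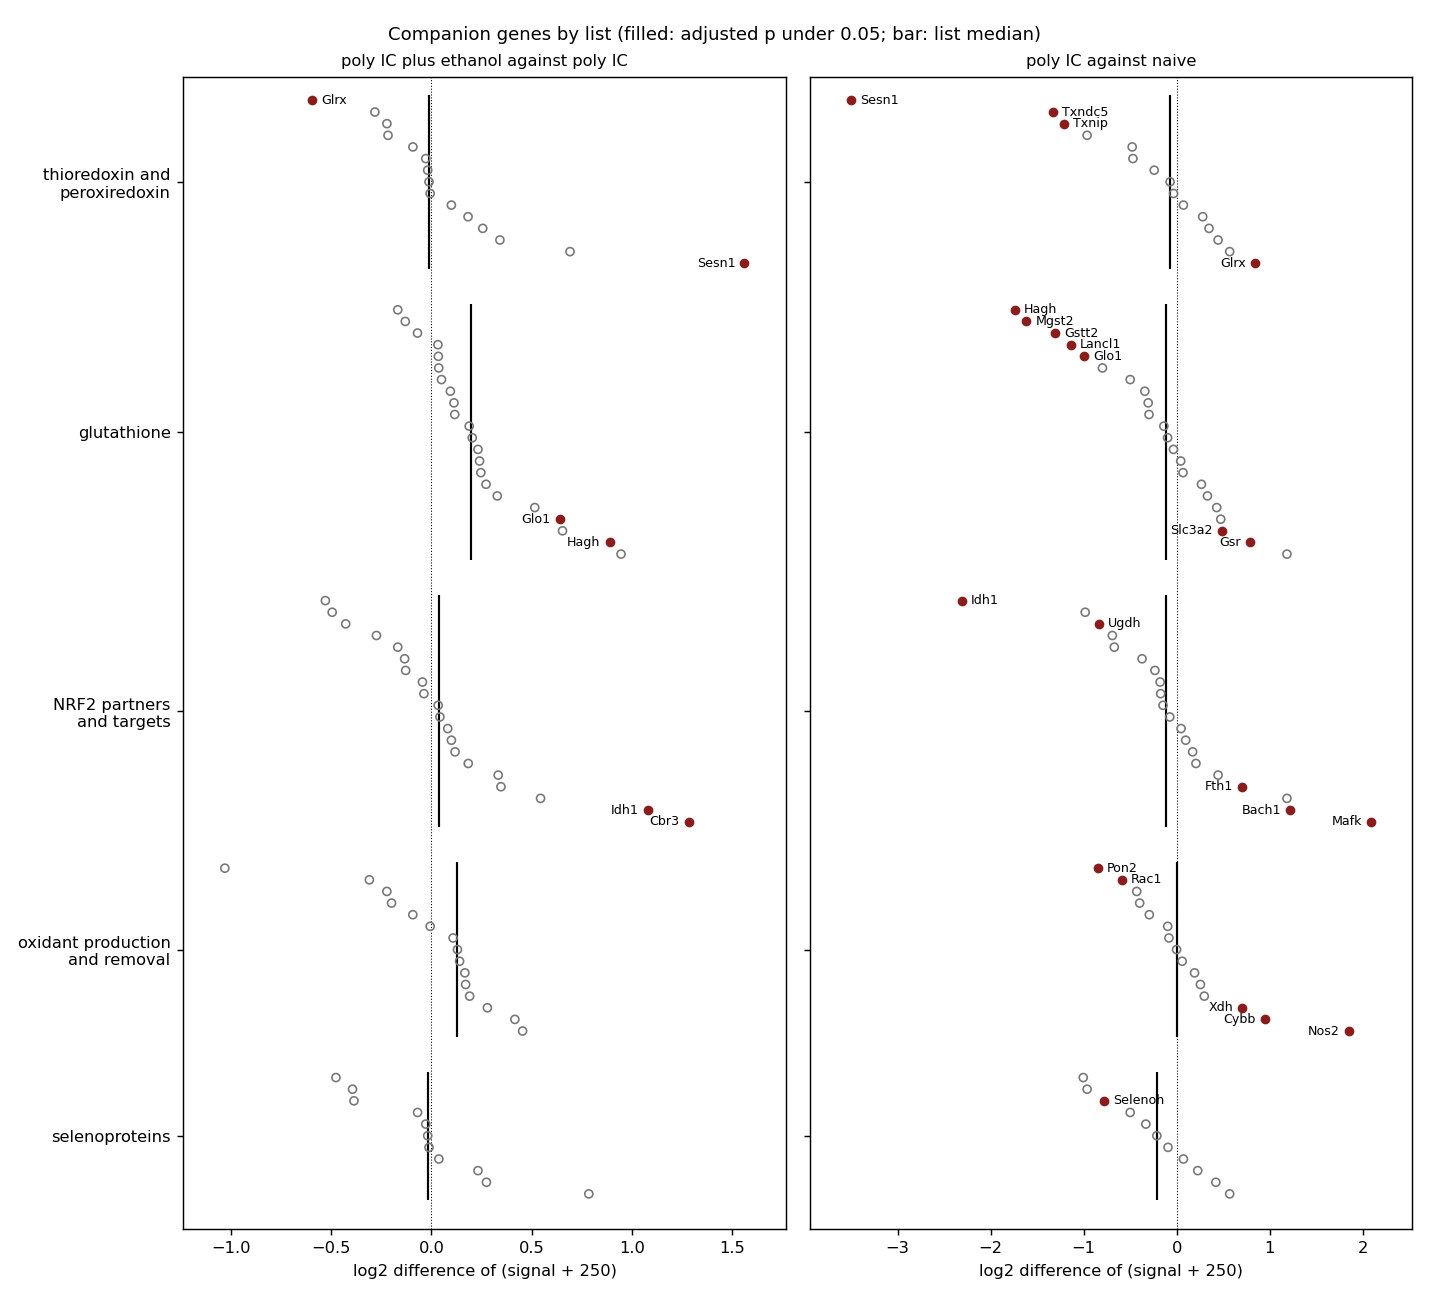
Log2 difference of (signal + 250) of each tested companion gene in 5 lists, for poly IC plus ethanol against poly IC (left) and poly IC against naive (right); filled points passed the test, open points did not, and the bar is the list's median. The list medians lie between -0.02 and 0.20 on the left and between -0.21 and -0.0015 on the right, while single genes such as Sesn1 and Mafk lie far from them.

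Of 15 tested genes of oxidant production and removal, 3 rose with poly IC, 2 fell, and none was called for ethanol with poly IC. In that last comparison 2 of the 15 had an unadjusted p under 0.05 in limma, beside 1441 of all 5581 genes. The median of the 15 was 0.13 for ethanol with poly IC and -0.0015 for poly IC against naive. Cybb, the membrane subunit of the phagocyte NADPH oxidase that makes superoxide, had 55868 and 37050 with poly IC plus ethanol, 58054 and 54890 with poly IC, and 29209 in naive cells. It rose by 0.94 with poly IC (limma adjusted p = 0.00596), and the call was lost without the intensity trend (limma adjusted p = 0.0588). Nos2, the inducible nitric oxide synthase, had 528 and 606 with poly IC plus ethanol, 1176 and 1695 with poly IC, and 212 in naive cells, where it lay below the brightest unspiked control. The 2 ethanol arrays lay below both poly IC arrays, with a log2 difference of -1.03 (limma adjusted p = 0.0635). Its rise with poly IC, 1.85 on the scale of log2(signal + 250), passed the test (limma adjusted p = 0.00455) and was lost without the second poly IC array (limma adjusted p = 0.0596). Among 11 tested selenoprotein genes, Selenoh, a nuclear selenoprotein, was lower with poly IC than in naive cells (log2 difference -0.79, limma adjusted p = 0.0242). None of the 11 was called for ethanol with poly IC. An unadjusted p under 0.05 in limma was reached by 3 of the 11, beside the same 1441 of 5581 genes. The call of Selenoh was lost in 4 of the 11 alternatives for that comparison, with limma adjusted p = 0.0802 on arrays centred on their medians and 0.167 without the second poly IC array.

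The genes whose profile over the 5 arrays was most like that of Sod2, the member with the largest rise, were Edn1, Sphk1 and Irgm2, by the root mean square difference of log2(signal + 250) after each gene was centred on its own mean (0.0767, 0.0808 and 0.127). Edn1, endothelin, had 3760 and 3935 with poly IC plus ethanol, 5310 and 5374 with poly IC, and 244 in naive cells. Irgm2, an interferon-induced GTPase, had 30229 and 29980 with poly IC plus ethanol, 39452 and 43237 with poly IC, and 3959 in naive cells. Both have the order of Sod2, with poly IC highest, ethanol below it and naive lowest. They were picked for likeness to Sod2 on these same arrays, so the shared order is no separate finding. The naive values of Edn1 and Sphk1 lay below the brightest unspiked control. For Gstp1, the member with the largest fall, the nearest were Rnf13, Kdm6a and Fam120a (0.0287, 0.0300 and 0.0320). Rnf13, a ubiquitin ligase, had 7552 and 7583 with poly IC plus ethanol, 6126 and 5849 with poly IC, and 10785 in naive cells. Its order, with naive highest and the ethanol arrays in between, likewise follows from how it was picked.

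The promoter table held windows for 9 of the 10 members, 11 windows in all. In all, 4 motifs were searched in the 250 bases before each start, on both strands: the ARE letters TGACNNNGC, the AP-1 letters TGANTCA, the interferon element letters GAAANNGAA, and the NF-kB consensus. The ARE letters were in 5 of the 11 windows, each of a different member (Nfe2l2, Txnrd1, Prdx1, Gclm and Sod1), beside 10.2% of all 32851 windows of this length. The NF-kB consensus matched in 3 of the 11 windows (Sod2, Prdx1 and Gpx1), beside 7.3% of all windows. The AP-1 letters were in 2 of the 11 (Gstp1 and Prdx1), beside 6.7%. No member window held the interferon element letters, which are in 7.1% of all windows. One of the AP-1 matches of Prdx1 shares letters with its ARE match. Of the 5 members with the ARE letters, 2 rose with poly IC (Nfe2l2 and Txnrd1) and 3 did not pass the test, Prdx1 on its shared probe sets, and the 250 bases before the Txn1 start held none of the 4 motifs. A match is a description of letters in this window and not of binding. Looser spellings of these elements were not searched, so a window without a match, such as that of Gstp1 for the ARE, may still hold one.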

How the data were processed

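RNA of mouse peritoneal macrophages was measured on 5 arrays in 3 groups, taken from the sample titles. The deposited intensities, per the labels, were summarised by the submitters with Microarray Suite 5.0 and scaled globally to a target of 2500, and Data Mining Tool 3.0 was used for their statistics. Global scaling hides a change in total RNA. Gene names came from the platform annotation and were updated by Entrez ID with a RefSeq table of GRCm38.p6, where 10817 of 10833 probe sets with 1 symbol were found; 396 had several symbols and 1193 none.

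Probe sets with a mean signal under the 40th percentile (513) of 12422 probe sets that are not controls were left out. A gene with several probe sets was read from its brightest one. Log2(signal + 250) was fitted in limma 3.58.1 (R 4.3.3) with a mean for each group and an intensity trend. The fit had 2 residual degrees of freedom and a prior of 7.63. Two-sided p-values were adjusted by Benjamini-Hochberg over 5581 genes. Intervals are 95% intervals. The number of arrays limits the precision.

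Alternatives were other offsets, no filter, centred or quantile-normalized arrays, no trend, averaged probe sets, single arrays left out, the title number as a block, and the 4 treated arrays alone. Named companion genes are at most the 3 with the largest absolute moderated t in each list and comparison; genes outside that are said to be so. The members, the lists and the tests were chosen with earlier results of these data known. Promoter sequences are from RefSeq (GRCm38.p6).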

Additional observations from a re-analysis of the deposited data

How the results depend on the processing

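For poly IC plus ethanol against poly IC, 590 genes were called. The count was 324 without the filter, 86 without the intensity trend, and 139 to 1076 when one array was left out, lowest without the second poly IC array (203 without the first) and highest without the first ethanol array. No member was called, but 1 was (Txnrd1) with an offset of 1000, with arrays centred on their medians, with the 4 treated arrays only and with the replicate block, and 0 to 2 when one array was left out (Txnrd1 and Txn1 without the first ethanol array). Companion calls, 6, were 1 without the filter, 1 without the trend, 12 with the replicate block and 1 to 13 when one array was left out, with the lowest and highest counts without the same arrays.

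For poly IC against naive, genes called (1775) ranged from 1158 to 2367 and companion calls (22) from 14 to 31 when one array was left out, lowest without the second poly IC array. For poly IC plus ethanol against naive, genes called (929) were 579 without the trend and 720 to 1520 when one array was left out, and companion calls (10) were 4 without the filter, 6 without the trend and 8 to 18, with the highest counts without the first ethanol array. Arrays centred on their medians changed the split of called genes to 194 higher and 286 lower for ethanol with poly IC (322 and 268 as deposited), to 843 and 721 for poly IC against naive (654 and 1121), and to 497 and 270 for poly IC plus ethanol against naive (468 and 461).

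Signs turned only for members that did not pass the test in the comparison concerned. The largest difference that turned was 0.23, of the first Prdx1 probe set in poly IC against naive. For poly IC plus ethanol against poly IC, Gclm was 0.0038 with an offset of 1000 and -0.26 to 0.25 when one array was left out, and Sod1 was -0.099 to 0.063. For poly IC against naive, Gpx1 was 0.081 with centred arrays and 0.043 with quantile normalization, and the Prdx1 probe sets were -0.12 and -0.14 with quantile normalization. For poly IC plus ethanol against naive, Gpx1 was -0.11 to 0.25 when one array was left out, and the first Prdx1 probe set was -0.085 to 0.071 so and 0.10 with centred arrays, where the second was 0.044. The cause of these changes was not tested. Of 385 member values under the alternatives, 363 kept their sign and their side of the threshold.

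Group numbers in the titles are shared by the treated groups, but deviations of same-numbered arrays correlated at only 0.05 across genes, with 2 pairs, so the numbers were not taken as pairs. The replicate block, fitted on the 4 treated arrays, gave 778 called genes and a Txnrd1 adjusted p of 0.0331 (limma). Pools of unknown size, 2 arrays a group and 1 naive array limit all comparisons, and probe sets near background, such as Gclm, have wide intervals.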
